A study of Mus musculus with 6 samples.

Results

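The genes described here are the NRF2 and BACH1 oxidative stress genes: 3 regulators (Nfe2l2, which encodes NRF2, Keap1 and Bach1) and 7 of their classic target genes (Hmox1, Nqo1, Gclc, Gclm, Txnrd1, Srxn1 and Slc7a11). They were chosen by name, and every non-control probe that the array design assigns to one of these names was taken. That gave 11 probes for 10 genes, out of 55681 probes on the array. All 11 passed the filter on dim signals, which kept 26991 probes; 10 of the 11 were well above background on all 6 arrays, and the Slc7a11 probe was so on 5. The cells were G1E-ER-GATA-1, a mouse erythroid precursor line without its own GATA-1, in which β-estradiol switches on GATA-1 fused to an estrogen receptor domain. One group of 3 samples received Foxo3 siRNA and the other group of 3 received nontargeting siRNA, by nucleofection at 0 h and 24 h. Both groups were given β-estradiol at 24 h and both were harvested at 48 h, so no sample lacked active GATA-1 or siRNA. Each RNA was labelled with Cy3 and read alone on an Agilent mouse array. The labels leave unsaid whether replicates came from separate cultures; the p-values then reflect sample-to-sample spread alone, which may be technical. In RNA from a whole culture, fewer cells of a kind and less RNA per cell cannot be told apart.

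NRF2 is a transcription factor that KEAP1 holds for degradation by the CUL3 ubiquitin ligase; electrophiles and oxidants modify KEAP1 and let NRF2 accumulate. With a small MAF protein it binds antioxidant response elements in genes for glutathione synthesis, thioredoxin reduction, NADPH supply and quinone reduction. BACH1 also pairs with small MAF proteins, occupies overlapping elements as a repressor and is released from DNA when heme binds it, which is why Hmox1 and ferritin genes respond to heme in maturing red cells.

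In the cells given Foxo3 siRNA the pathway did not move one way. Nqo1, Hmox1 and Srxn1 were higher, Slc7a11 was much lower, and the mRNA of NRF2 itself was lower. Keap1, Bach1, Gclc, Gclm and Txnrd1 did not pass the test. By limma at an adjusted p under 0.05, 3 of the 10 genes rose and 2 fell. Over all genes, read by the brightest kept probe, 25.2% were called, 11.8% higher and 13.4% lower. At probe level 4 of the 11 rose and 2 fell, beside 25.6% called among all kept probes. The median log2 difference was −0.03 over the 10 genes and −0.18 over all 22567 genes tested. In 8 of the 11 probes the 3 values of one group lay wholly apart from those of the other, 4 higher and 4 lower, beside 49.7% of all kept probes without overlap (21.5% higher, 28.2% lower). Another scaling shifts every difference together: the median over all kept probes was −0.16 in the main setting, 0.15 with arrays scaled to their medians and 0.23 with arrays scaled to spike-in controls, and 47.6%, 77.2% and 81.6% of the calls were then higher. The differences that follow are log2 differences, Foxo3 siRNA minus nontargeting siRNA, in signals scaled to the 75th percentile of each array.

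**Figure D1:**
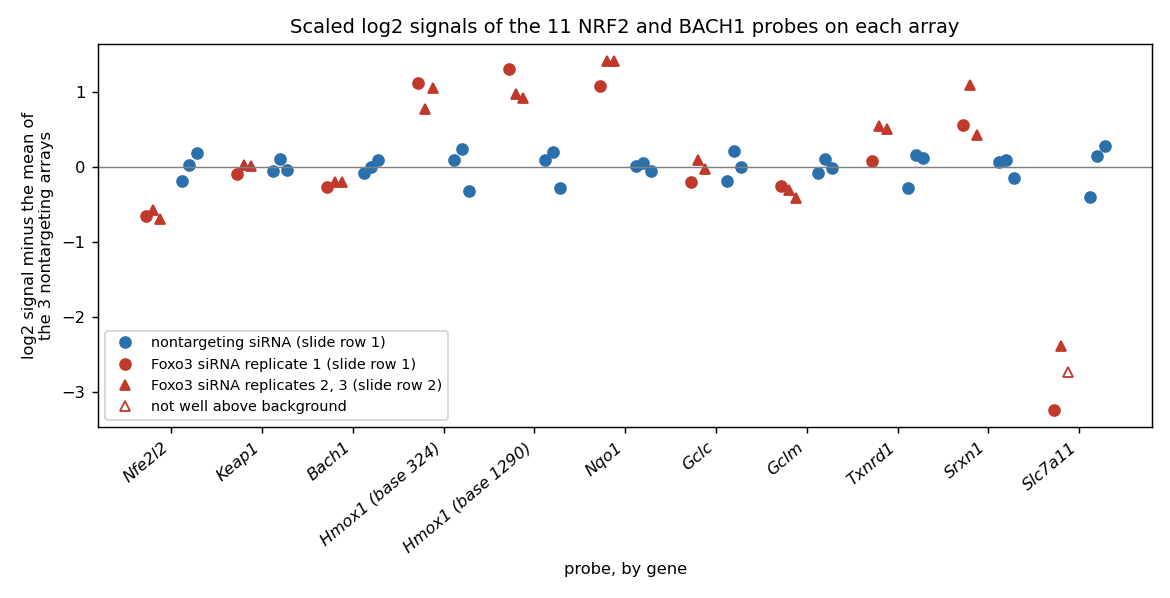
Scaled log2 signal of each of the 11 probes on each of the 6 arrays, drawn as the distance from the mean of the 3 nontargeting arrays (vertical axis, log2 units), with 1 point per array; circles are arrays of slide row 1, triangles arrays of slide row 2, and the open triangle was not well above background. The Foxo3 siRNA points of Nqo1, Srxn1 and both Hmox1 probes lie above all nontargeting points, those of Nfe2l2 and Slc7a11 lie below them, and those of Keap1, Gclc and Txnrd1 overlap.

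On the arrays as a whole, 20343 to 37532 spots were well above background, and Foxo3 siRNA replicate 3 had the fewest. That array's lowest well-above-background level was −2.50, against −5.40 to −4.03 on the others. All 6 arrays lay on 1 slide; the 3 nontargeting arrays and Foxo3 siRNA replicate 1 were in slide row 1, and Foxo3 siRNA replicates 2 and 3 were in row 2. Row 2 therefore holds 1 group, and only replicate 1 can be compared within a row. The Foxo3 probe on the RefSeq transcript fell by 2.42 (limma adjusted p = 0.00533). Its scaled log2 signal was −0.46, −1.29 and −1.89 on Foxo3 siRNA replicates 1, 2 and 3. The nontargeting arrays gave 1.23, 1.28 and 1.12. Replicate 1, the Foxo3 siRNA array of slide row 1, was thus the least reduced. This probe clearly exceeded background in all 3 controls but in only 2 knockdown samples. The Foxo3 probe on a cDNA clone gave 0.25 (adjusted p = 0.258), so the check of the knockdown rests on 1 of 2 probes. Erythroid markers fitted the label, with 10 of 10 genes detected on all arrays, Klf1 and Slc4a1 among them. Gata1 belongs to this list, but its signal may come from the introduced fusion, so its detection tells nothing about cell type. The summed linear level of the erythroid markers was 4030 to 5310 times the scaling level with Foxo3 siRNA and 5790 to 6420 with nontargeting siRNA. Megakaryocyte markers were detected on all arrays for 5 of 7 genes, with sums of 39.5 to 70.8 and 38.5 to 59.4. Of 8 granulocyte and macrophage markers, 4 (Elane, Csf1r, Itgam and Csf3r) were detected on all arrays and 4 (Mpo, Lyz2, Ly6g and S100a8) on none. Their sums were 236 to 302 with Foxo3 siRNA and 303 to 396 with nontargeting siRNA, above those of the megakaryocyte markers. Stromal markers were detected on all arrays for 0 of 5 genes, mast cell and basophil markers for 1 of 4 and lymphoid markers for 2 of 6. The part of these differences in the results below was not tested.

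Among the regulators, only Nfe2l2 passed the test in the main setting. Its probe starts at base 2214 of the transcript and lies on the minus strand of chromosome 2, from 75513771 to 75513830 in mouse build mm9. The scaled log2 signal was 4.30, 4.39 and 4.26 on the Foxo3 siRNA arrays and 4.77, 4.98 and 5.14 on the nontargeting arrays. Every Foxo3 siRNA array was below every nontargeting array. The mean was 4.32 ± 0.06 (SD, n = 3) against 4.97 ± 0.19, and Nfe2l2 fell by 0.65 (SE 0.131, limma adjusted p = 0.0164), to 63.7% of its level in the controls. The size depended on the scaling, at −0.34 (adjusted p = 0.41) with arrays scaled to their medians and −0.26 (adjusted p = 0.867) with spike-in scaling. For Nfe2l2 the authors' deposited table gave −0.56 (adjusted p = 0.178). The call was also lost without Foxo3 siRNA replicate 3 (−0.62, adjusted p = 0.0594), when nontargeting replicate 2 was left out (−0.64, adjusted p = 0.0724), and on leaving out nontargeting replicate 3 (−0.56, adjusted p = 0.0501). Within slide row 1, Foxo3 siRNA replicate 1 against the 3 nontargeting arrays, the value was −0.67 (adjusted p = 0.175).

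Keap1, the adaptor that targets NRF2 for degradation, read 3.37, 3.49 and 3.48 on the Foxo3 siRNA arrays and 3.41, 3.57 and 3.42 in the controls, so the groups overlapped. The difference was −0.02 (95% interval −0.28 to 0.24, adjusted p = 0.905). Its probe covers 441 bases of chromosome 9 (mm9, 21035292 to 21035732, minus strand) with 60 bases of sequence and thus skips 381 genomic bases, as a probe across a splice junction does. The Gclm probe likewise covers 2636 bases (chromosome 3, 121962174 to 121964809, plus strand). These 2 sequences are shown because they read spliced RNA, and no base is capitalised.
Keap1 probe: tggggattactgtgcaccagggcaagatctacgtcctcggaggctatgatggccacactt
Gclm probe: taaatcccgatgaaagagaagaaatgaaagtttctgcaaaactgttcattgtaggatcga

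Bach1, the heme-sensing repressor (probe on mm9 chromosome 16, 87733532 to 87733591, plus strand), read 4.48, 4.54 and 4.54 with Foxo3 siRNA against 4.66, 4.74 and 4.84. Its values were lower on every Foxo3 siRNA array, yet the difference of −0.23 (95% interval −0.48 to 0.03, adjusted p = 0.145) did not pass, and it was 0.08 with arrays scaled to their medians. Because a ratio of probes on the same array does not depend on how arrays are scaled, the regulators were also set against each other. The log2 ratio of Nfe2l2 to Keap1 was 0.93, 0.90 and 0.78 on the Foxo3 siRNA arrays, against 1.36, 1.41 and 1.72 on the others. The change in that ratio was −0.63 (exact two-sided permutation p = 0.10, adjusted p = 0.167 over 5 partner ratios; 0.10 is the smallest p that 3 against 3 samples allow). The ratio of Nfe2l2 to Bach1 changed by −0.42, again without overlap between groups (exact permutation p = 0.10, adjusted p = 0.167). Within arrays, Nfe2l2 signal was thus lower relative to both of the other regulators on all 3 Foxo3 siRNA arrays.

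Antioxidant response elements share the core TGACNNNGC or TGAGNNNGC, and sites for AP-1 and small MAF proteins contain TGACTCA. The windows from 250 bases before to 50 bases after the annotated starts, from RefSeq (build GRCm38.p6), were searched on both strands for these letters, for the forkhead word GTAAACA, the GATA word AGATAA and TGATGCAA, a composite C/EBP-ATF word. Windows were found for 8 of the 10 genes (all but Hmox1 and Gclc), 10 windows in all, with 3 for Txnrd1. TGACNNNGC was in 4 of the 10, beside 12.4% of all 32851 windows, and TGAGNNNGC in 2, beside 17.6%. TGACTCA was in 5.20% of all windows and in that of Srxn1, where 2 matches stand. The matches nearest the results follow with the matched letters in capitals, as they read on the strand of the gene. A match only states that the letters are there.
Nfe2l2, chr2:75704854-75704913, minus strand: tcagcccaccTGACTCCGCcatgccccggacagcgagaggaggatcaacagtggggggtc
Gclm, chr3:122245397-122245456, plus strand: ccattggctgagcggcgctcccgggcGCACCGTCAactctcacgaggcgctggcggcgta
Txnrd1 (the window 2 of its 3), chr10:82859086-82859145, plus strand: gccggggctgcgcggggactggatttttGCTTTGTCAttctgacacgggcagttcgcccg
Srxn1, chr2:152105354-152105523, plus strand: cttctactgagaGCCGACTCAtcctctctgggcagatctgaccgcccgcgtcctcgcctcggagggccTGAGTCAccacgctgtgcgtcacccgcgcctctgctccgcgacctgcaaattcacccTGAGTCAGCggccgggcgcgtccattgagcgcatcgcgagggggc
In Srxn1 the TGACTCA match that begins 45 bases before the start overlaps a TGAGNNNGC match at the same place; another TGAGNNNGC match begins 158 bases before the start and a TGACNNNGC match 29 bases into the transcript. Keap1 held an AGATAA match. The windows of Bach1 and Nqo1 and windows 1 and 3 of Txnrd1 held none of these letters. Sequence outside the windows was not searched, so a gene without a match here may hold one elsewhere.

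**Figure D2:**
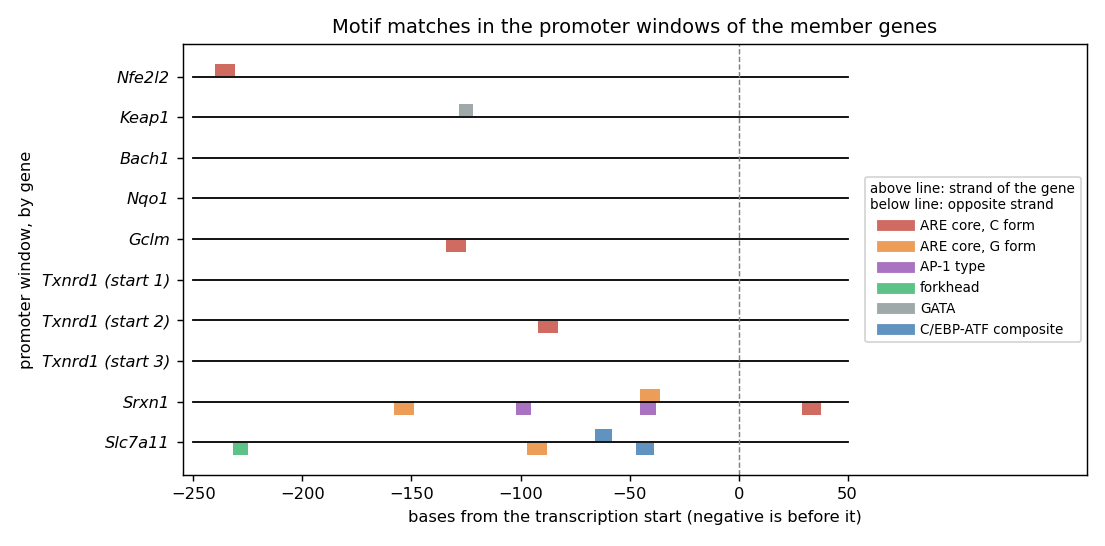
Positions of the motif matches (coloured bars) in the 10 promoter windows, in bases from the transcription start (horizontal axis; negative is before the start), with 1 line per window and matches on the strand of the gene above the line. The Srxn1 and Slc7a11 windows hold several matches, and those of Bach1 and Nqo1 and windows 1 and 3 of Txnrd1 hold none.

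Among the 10 genes, Nqo1 had the highest rise. It encodes a quinone reductase that uses NADPH or NADH. Its probe (mm9, chromosome 8, 109912440 to 109912499, minus strand) read 0.90, 1.23 and 1.23 on the Foxo3 siRNA arrays, against −0.16, −0.13 and −0.23 on the nontargeting arrays. The 3 nontargeting arrays lay within a narrow range and every Foxo3 siRNA array stood above them. The rise was 1.29 (SE 0.131, adjusted p = 0.00215), or 2.45-fold, and 2.26% of all kept probes rose more. It was called in 18 of 19 alternatives, and the exception was the comparison within slide row 1 (1.07, adjusted p = 0.0601), which holds 1 Foxo3 siRNA array. In the authors' deposited table it was higher by 1.23 (adjusted p = 0.0276).

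Hmox1 encodes heme oxygenase, which opens the heme ring and releases iron, biliverdin and carbon monoxide, and its gene is the textbook BACH1 target. It was read by a pair of probes on chromosome 8 (mm9, 77620797 to 77620856 and 77624207 to 77624266, plus strand). The probe at base 1290 of the transcript read 5.19, 4.86 and 4.80 on the Foxo3 siRNA arrays, against 3.98, 4.08 and 3.60, a rise of 1.06 (SE 0.177, adjusted p = 0.00914) or 2.08-fold. The other, which starts at base 324 of the transcript, read 2.07, 1.73 and 2.01 against 1.05, 1.19 and 0.63, a rise of 0.98 (SE 0.182, adjusted p = 0.0127) or 1.97-fold. Its sequence is shown because these probes are the only pair among the 10 genes that read separate places of 1 mRNA.
Hmox1 probe at base 324: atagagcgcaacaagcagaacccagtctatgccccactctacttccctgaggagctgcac
Both probes put all 3 Foxo3 siRNA arrays above all 3 nontargeting arrays, and on both nontargeting replicate 3 was the lowest array. Without a filter on dim probes, where 55681 probes share the adjustment, neither was called (adjusted p = 0.0979 for the probe at base 1290 and 0.119 for the other). Nor was either within slide row 1 (1.30, adjusted p = 0.0837, and 1.11, adjusted p = 0.121), and in the authors' deposited table the values were 1.07 (adjusted p = 0.0536) and 0.85 (adjusted p = 0.118).

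Srxn1 encodes sulfiredoxin, which repairs over-oxidised peroxiredoxins. Its probe (mm9, chromosome 2, 151937009 to 151937068, plus strand) read 4.86, 5.40 and 4.73 on the Foxo3 siRNA arrays, against 4.37, 4.39 and 4.16. Replicate 2 was the highest of the Foxo3 siRNA arrays, and the groups did not overlap. The rise of 0.69 (SE 0.196, adjusted p = 0.0455), or 1.61-fold, was close to the threshold: leaving out any single array gave 0.49 to 0.82 and ended the call each time (adjusted p = 0.0553 to 0.113). Within slide row 1 it was 0.55 (adjusted p = 0.189). The difference was above 0 in all 19 alternatives and called in 6. In the authors' deposited table the rise was 0.75 (adjusted p = 0.184).

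Txnrd1 encodes cytosolic thioredoxin reductase. Its probe (mm9, chromosome 10, 82360230 to 82360289, plus strand) read 3.97, 4.44 and 4.40 on the Foxo3 siRNA arrays, against 3.62, 4.06 and 4.02. The lowest Foxo3 siRNA array fell inside the nontargeting range. The difference of 0.37 (95% interval −0.08 to 0.82, adjusted p = 0.173) did not pass, and within slide row 1 it was 0.07 (adjusted p = 0.875). Its partner Txn1, thioredoxin itself, rose by 0.63 (adjusted p = 0.0121), but the ratio of Txnrd1 to Txn1 overlapped between the groups (change −0.26, exact permutation p = 0.30, adjusted p = 0.30 over the 5 ratios).

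Gclc and Gclm encode the catalytic and the modifier subunit of glutamate-cysteine ligase, the rate-limiting enzyme of glutathione synthesis. Gclc (probe on mm9 chromosome 9, 77641296 to 77641355, plus strand) read 3.26, 3.55 and 3.44 with Foxo3 siRNA against 3.27, 3.67 and 3.46, a difference of −0.05 (95% interval −0.40 to 0.31, adjusted p = 0.816). The groups of Gclc overlapped. Gclm read 3.57, 3.52 and 3.41 against 3.75, 3.94 and 3.81; every Foxo3 siRNA array was lower, and the difference of −0.33 (95% interval −0.60 to −0.07, adjusted p = 0.0693) missed the threshold. It passed in 3 of 19 alternatives and was 0.06 with spike-in scaling. The log2 ratio of Gclm to Gclc was 0.31, −0.03 and −0.03 on the Foxo3 siRNA arrays, against 0.48, 0.27 and 0.35, which overlapped (change −0.28, exact permutation p = 0.20, adjusted p = 0.25). The intervals of both subunits lie below the estimates for Nqo1 and Hmox1.

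**Figure D3:**
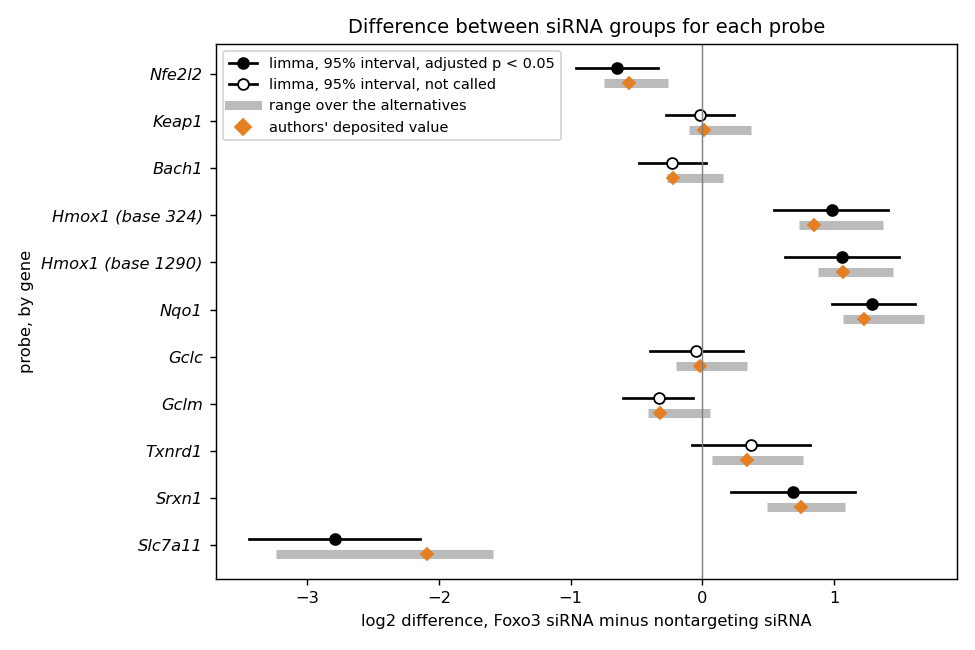
Log2 difference between the groups for each probe (horizontal axis): black circles are limma estimates with their 95% intervals, filled where the adjusted p was under 0.05, grey bars span the 19 processing alternatives, and orange diamonds are the authors' deposited values. The bars of Nqo1, Srxn1 and both Hmox1 probes stay above 0, those of Nfe2l2 and Slc7a11 stay below 0, and those of Keap1, Bach1, Gclc and Gclm cross it.

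The widest difference among the 10 genes was that of Slc7a11. Slc7a11 encodes xCT, the light chain of the exchanger that imports cystine for glutathione synthesis, and besides NRF2 it is a known target of ATF4, the factor of the amino acid response. Before scaling it gave signals of 24.1, 64.1 and 39.1 on the Foxo3 siRNA arrays, against 149.1, 246.8 and 242.2. On the scaled log2 axis that was −3.84, −2.99 and −3.34 against −1.01, −0.46 and −0.33. The Foxo3 siRNA arrays lay far below the nontargeting arrays, and the groups did not come near each other. The fall of 2.79 (SE 0.271, 95% interval −3.44 to −2.14, adjusted p = 0.00197) corresponds to 14.5% of the control level as measured, but the Foxo3 siRNA side is near background; with a common floor of −2.50, the detection limit of Foxo3 siRNA replicate 3, under which all 3 Foxo3 siRNA values lie, it was 26.8%.

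The Slc7a11 probe (mm9, chromosome 3, 50169700 to 50169759, minus strand; base 8325 of the transcript) was dim, which bears on the size of the fall. It was well above background on all nontargeting arrays and on 2 of 3 Foxo3 siRNA arrays, the exception being replicate 3, so it passed the filter through the nontargeting group. With all arrays raised to that floor the fall was −1.90 (adjusted p = 0.00606), and with normexp background correction and an offset of 50 it was −1.59 (adjusted p = 0.000218). It was −2.81 (adjusted p = 0.0106) without replicate 3 and −3.24 (adjusted p = 0.0328) within slide row 1. It was called in all 18 alternatives that could test it; the filter that demands all 6 arrays removes the probe. The authors' deposited table gives −2.09 (adjusted p = 0.0335). Slc3a2, the heavy chain that carries xCT to the membrane, gave 0.11 (adjusted p = 0.727), and the log2 ratio of Slc7a11 to Slc3a2 was −9.79, −9.17 and −9.90 against −6.78, −6.64 and −6.75, a change of −2.90 (exact permutation p = 0.10, adjusted p = 0.167). The −9.90 is from replicate 3, where Slc7a11 was not well above background. With Slc7a11 raised to the floor, a choice made after seeing the data, the ratios of the Foxo3 siRNA arrays were −8.45, −8.68 and −9.06 and the change was −2.01 (exact permutation p = 0.10).

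The Slc7a11 promoter window is shown because it differs in content from those of the other genes. TGATGCAA, of the kind that C/EBP and ATF proteins bind as pairs, was found 66 bases before the start on the strand of the gene and 47 bases before it on the other strand. That word was in 0.895% of all windows, and 2 of 32851 windows, this one included, held 2 or more matches. It was added to the search after values were seen, and its part in the fall was not tested. The window also held the forkhead word GTAAACA, 232 bases before the start (3.65% of all windows), and TGAGNNNGC, 97 bases before it. The 250 bases before the start follow, with the matches in capitals (TGTTTAC, GCTTTCTCA and TTGCATCA are the same words read on the opposite strand).
Slc7a11, chr3:50443614-50443863, minus strand: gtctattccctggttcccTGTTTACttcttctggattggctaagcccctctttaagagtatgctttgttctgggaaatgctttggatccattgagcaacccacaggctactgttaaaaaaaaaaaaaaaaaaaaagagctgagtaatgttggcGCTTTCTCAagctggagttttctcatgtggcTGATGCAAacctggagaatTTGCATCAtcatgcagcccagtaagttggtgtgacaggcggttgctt

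Of 16 listed genes that share ATF4 control with Slc7a11, 12 were tested; 6 fell and 1 rose, beside 13.4% lower and 11.8% higher over all genes, and the median was −0.76 beside −0.18. Sesn2, a stress-induced inhibitor of mTORC1, fell by 1.20 (adjusted p = 0.0026), and Atf5 fell by 1.53 (adjusted p = 0.00529). Ddit3, which encodes CHOP, fell by 0.97 and Cebpb fell by 1.11. Of the 19 alternatives, Sesn2 was called in 16, Atf5 in 15, Ddit3 in 13 and Cebpb in 13. None of these 4 was called without a filter on dim probes (adjusted p = 0.0511 to 0.12). In the authors' deposited table Sesn2 alone of the 4 was called. With spike-in scaling these 4 genes were not called (−0.81 for Sesn2, adjusted p = 0.335; −1.14 for Atf5, 0.109; −0.58 for Ddit3, 0.553; −0.72 for Cebpb, 0.418), and Cebpb was also lost without nontargeting replicate 2 (adjusted p = 0.0571). Atf4 itself (−0.84, adjusted p = 0.0185) and Trib3 (−1.43, adjusted p = 0.0141) were also called, and are named after their values were seen. Psat1, of serine synthesis, rose by 0.81 (adjusted p = 0.0248), and Asns, asparagine synthetase, gave 0.03 (adjusted p = 0.831), so the list was not uniform. Of the 11 tested genes of this list with a promoter window, 0 held TGATGCAA. Earlier results of these data had already shown falls of Sesn2 and Atf5, so the list is no independent support.

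Of 5 tested DNA-binding partners and relatives of NRF2 and BACH1, 2 fell and 0 rose (median −0.49), beside 13.4% lower and 11.8% higher over all genes. Mafk, a small MAF protein that pairs with both factors, fell by 0.78 (SE 0.117, adjusted p = 0.00656; called in 13 of 19 alternatives), but was −0.47 (adjusted p = 0.228) with arrays scaled to their medians and −0.39 (adjusted p = 0.746) with spike-in scaling. Nfe2, the erythroid relative of NRF2 with the same partners, fell by 0.49 (adjusted p = 0.0243), a call made in 8 of 19 alternatives; it was −0.18 (adjusted p = 0.709) with median scaling, and it was lost on leaving out any array but Foxo3 siRNA replicate 1 (adjusted p = 0.058 to 0.0983). Mafg gave −0.41 (adjusted p = 0.0984) and Nfe2l1 −0.49 (adjusted p = 0.187). Bach2 and Nfe2l3 were too dim to be tested.

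Of 12 genes that control NRF2 turnover or activity 2 fell and 0 rose (median −0.17), a share called that is not above the 25.2% over all genes. Sqstm1 encodes p62, a cargo receptor that traps KEAP1 and is itself an NRF2 target; it fell by 1.48 (SE 0.124, adjusted p = 0.00138) and by 1.22 on its other kept probe. Prkci fell by 0.61 (adjusted p = 0.0403; called in 7 of 19 alternatives). Sqstm1 was called in 17 of 19 alternatives, and with spike-in scaling it gave −1.09 (adjusted p = 0.132). The counts of rises and falls read each gene by its brightest kept probe. The brightest probe of Park7 gave 0.33 (adjusted p = 0.0641), and its other kept probe was called at 0.38. Gsk3b was called higher on 1 of 3 kept probes (0.28 to 0.93) and Brd8 lower on 1 of 2 (−0.7 to −0.26), in neither case the brightest. Crebbp gave −0.32 (adjusted p = 0.0909), and Cul3, the scaffold of the KEAP1 ligase, −0.21 (adjusted p = 0.151).

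In the glutathione list 4 of 15 tested genes rose and 2 fell (median 0.02), beside 11.8% higher and 13.4% lower over all genes. Ggct, of the glutathione cycle, rose by 1.05 (SE 0.105, adjusted p = 0.0021) and the transferase Gstp1 by 0.84 (adjusted p = 0.00896; called in 14 of 19 alternatives), with the reserve that Gstp1 has a near-identical neighbour whose RNA the probe could bind. Gsta3 was lower by 1.28 (adjusted p = 0.00343), but it was well above background on only 1 of 3 Foxo3 siRNA arrays, and with all arrays raised to the common floor the difference was 0. Gpx2 fell by 0.79 (adjusted p = 0.0235; called in 8 of 19 alternatives). Abcc4, an exporter of conjugates, rose by 0.53 (adjusted p = 0.0296). Mgst3, a microsomal transferase, rose by 0.55 on its brightest probe (adjusted p = 0.0404), and both of its kept probes were called, at 0.55 to 1.55. The remaining synthesis and reduction enzymes, Gss (−0.16, adjusted p = 0.258) and Gsr (−0.17, adjusted p = 0.356), did not pass.

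Thioredoxin and peroxiredoxin genes rose in 4 of 12 cases and fell in 3 (median 0.14), beside 11.8% and 13.4% over all genes. Txn1 was called in 13 of 19 alternatives and not without nontargeting replicate 2 (0.61, adjusted p = 0.0636). Besides it, those higher were Txnrd3, Prdx5 and Txnl1, at 0.43 to 0.65 and close to the threshold (adjusted p = 0.0405 to 0.0416). Txnip, which binds and blocks thioredoxin, fell by 1.75 (SE 0.164, adjusted p = 0.00174; −1.77 on its other probe) and was called in 19 of 19 alternatives. The mitochondrial reductase Txnrd2 fell by 0.64 (adjusted p = 0.0318; called in 8 of 19), opposite in sign to Txnrd1. Sesn2 belongs to this list too.

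Among enzymes that supply NADPH 2 of 7 rose and 2 fell (median 0.30), beside 11.8% and 13.4% over all genes. Me1, the cytosolic malic enzyme, rose by 1.05 (SE 0.179, adjusted p = 0.00971), with all 3 of its kept probes called at 1.05 to 1.57. Pgd, of the pentose phosphate pathway, rose by 0.53 (adjusted p = 0.0197), a call made in 9 of 19 alternatives and lost on leaving out any array but Foxo3 siRNA replicate 1 (0.48 to 0.58, adjusted p = 0.0578 to 0.0701). G6pdx, the first enzyme of that pathway, gave 0.64 (adjusted p = 0.0529). The isocitrate dehydrogenases were lower: Idh2 of mitochondria fell by 1.05 (adjusted p = 0.00444; called in 14 of 19) and cytosolic Idh1 by 0.66 (adjusted p = 0.0284; called in 8 of 19 alternatives).

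Of 10 tested heme and iron genes, among which Hmox1 works, 1 rose and 2 fell (median −0.15), a share close to the 25.2% called over all genes. Slc48a1, a heme transporter of lysosomal membranes, fell by 1.35 (SE 0.123, adjusted p = 0.00164). It was called in 17 of 19 alternatives, and with spike-in scaling it gave −0.95 (adjusted p = 0.218). Slc40a1, the iron exporter ferroportin, fell by 0.76 (adjusted p = 0.016). The Slc40a1 call was made in 10 of 19 alternatives: it was −0.44 (adjusted p = 0.263) with median scaling and −0.36 (adjusted p = 0.772) with spike-in scaling, and it was lost without Foxo3 siRNA replicate 3 (adjusted p = 0.0582), nontargeting replicate 2 (0.074) or nontargeting replicate 3 (0.0539). Abcb6, a porphyrin transporter, rose by 0.80 (adjusted p = 0.00477; called in 14 of 19). The ferritin genes, BACH1 targets like Hmox1, gave −0.54 for Ftl1 (adjusted p = 0.0553; probes of this gene can bind its pseudogene transcripts) and −0.06 for Fth1 (adjusted p = 0.709). Over the 19 alternatives Ftl1 ranged from −0.65 to −0.04, the last in the authors' deposited table, and it was called in 4. Blvra and Blvrb, which reduce the biliverdin that heme oxygenase makes, gave 0.46 (adjusted p = 0.0641) and −0.23 (adjusted p = 0.221).

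The remaining NRF2 target enzymes showed 2 rises and 1 fall among 12 (median −0.23), a share called that is close to that over all genes. Ptgr1, a reductase of reactive aldehydes and prostaglandins, rose by 2.46 (SE 0.327, adjusted p = 0.00451), more than any of the 10 pathway genes. It was dim on the nontargeting arrays (60.7, 75.4 and 109 before scaling), and with normexp the rise was 1.74. The call was made in 17 of 19 alternatives and lost without a filter on dim probes (adjusted p = 0.057). The other alternative without a call was slide row 1 alone, which holds 1 Foxo3 siRNA array and gave a rise of 1.88. Of the 10 genes of this list with a promoter window, 1, Ptgr1, held TGATGCAA, beside 0.895% of all windows. That word was added after values were seen. Akr1b3, an aldose reductase, rose by 0.91 (adjusted p = 0.0149) on the brightest probe and was called on its other probe too; the brightest was called in 13 of 19 alternatives and lost without nontargeting replicate 1 (adjusted p = 0.0514) or 2 (0.0624). Cbr1 fell by 0.43 (adjusted p = 0.0456; called in 7 of 19 alternatives), and Esd gave −0.37 (adjusted p = 0.0512). Over all 83 tested genes of these lists 14 rose and 19 fell, 33 in all, beside the 25.2% of all genes called; the split was 19 and 10 with arrays scaled to their medians and 4 and 1 with spike-in scaling.

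**Figure D4:**
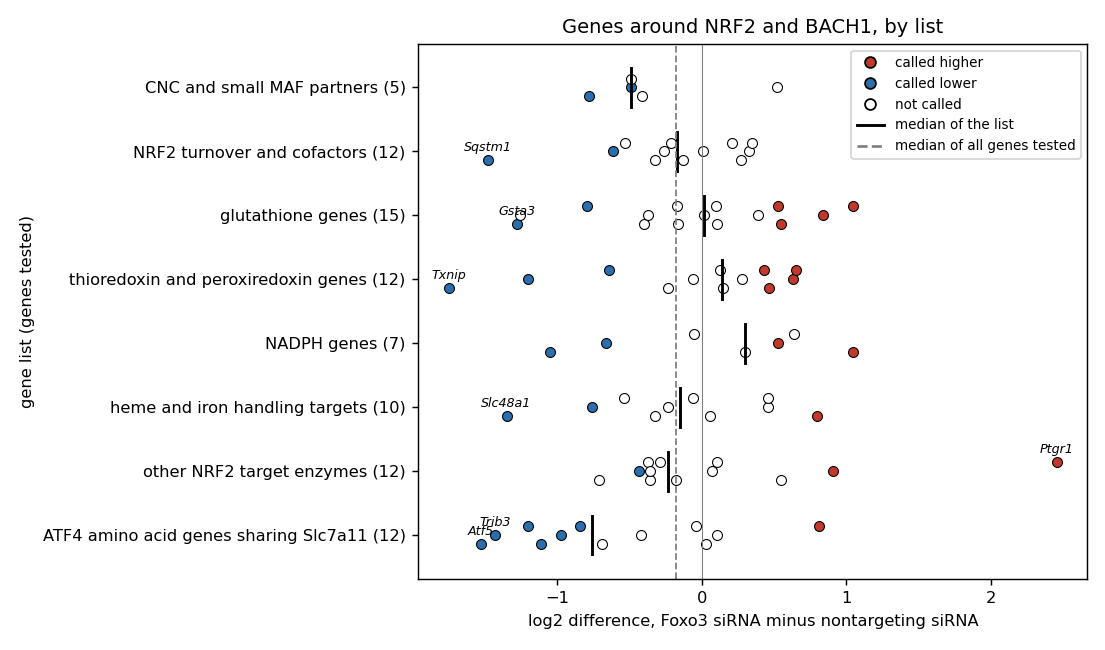
Log2 difference of every tested gene (circles) in the 8 fixed lists (vertical axis, with the number of genes tested), read by the brightest kept probe; red and blue circles were called higher and lower at an adjusted p under 0.05, bars are list medians and the dashed line is the median of all genes tested, −0.18. Called genes lie on both sides in 6 of the 8 lists, and only lower in the partner and turnover lists.

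**Figure D5:**
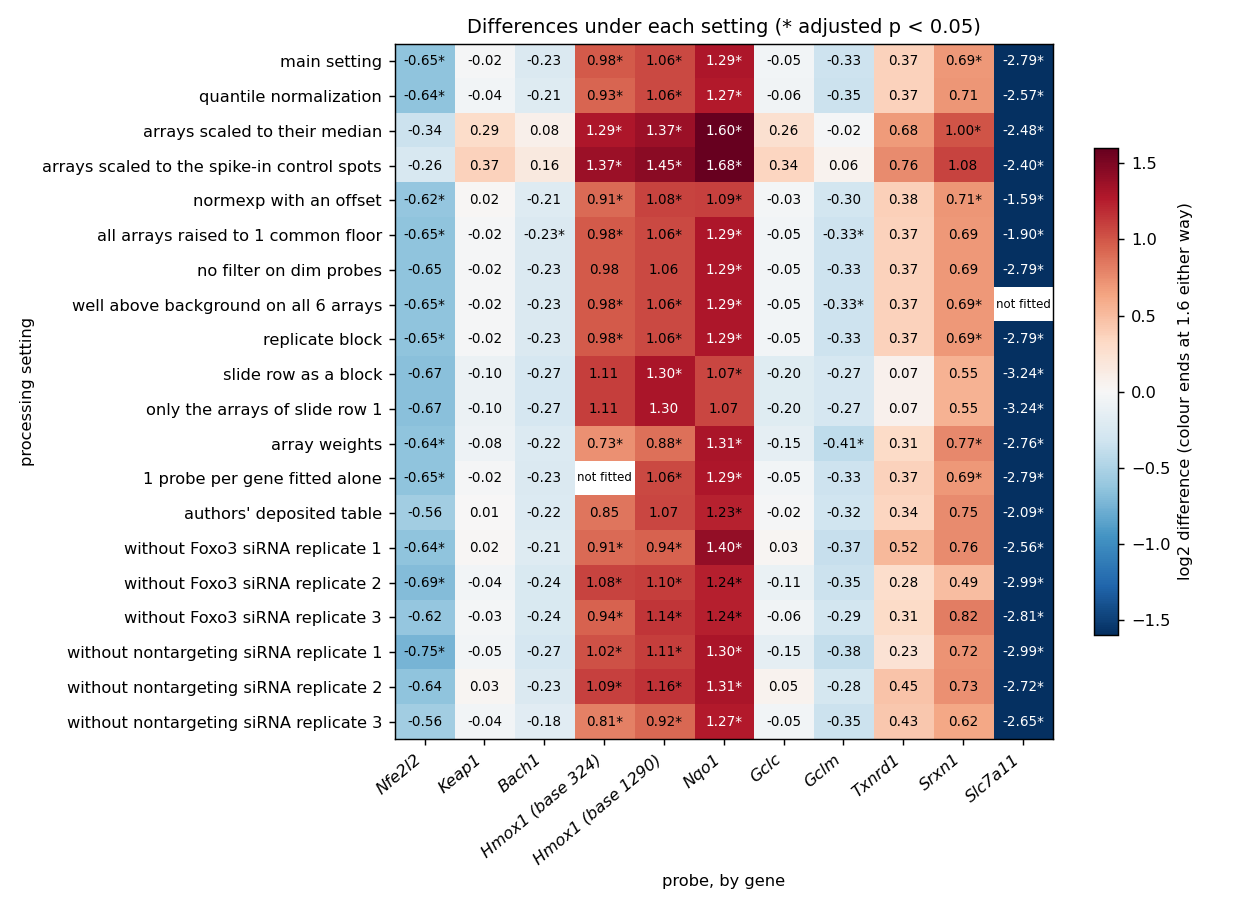
Log2 difference of each of the 11 probes (columns) under the main setting and 19 alternatives (rows), with colour for sign and size and an asterisk for an adjusted p under 0.05. The sign of Nqo1, Hmox1, Srxn1, Nfe2l2 and Slc7a11 is the same in every cell that could be fitted, whereas Keap1, Bach1, Gclc and Gclm change sign under some scalings.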

How the data were processed

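Per the file headers, the intensity values (processed signal) were made by the authors with Agilent Feature Extraction 10.7.3.1 with spatial and multiplicative detrending within each array; no scaling between arrays is recorded. The deposited series table holds the same intensity values beside the authors' log2 fold change and p-value, and the submitters' processing notes name limma; how arrays were scaled for them is not given in the sources used here. Base 2 was read from the signals (slope 0.949 on the differences computed here, over probes above background on all 6 arrays).

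Outlier and control spots (3671 of 62976) were left out. Each log2 signal was set relative to its array's 75th percentile, and probes well above background on all 3 arrays of a group were kept. Groups were compared with limma 3.58.1 (R 4.3.3; lmFit, eBayes, two-sided, no covariates), with Benjamini-Hochberg adjustment over all 26991 kept probes; the code was checked on simulated data. A gene in a list was read by its brightest kept probe, named through RefSeq. The rule named all 10 genes, up to 4 genes per list with the smallest adjusted p, and Foxo3; other list genes were named after their values were seen. The members and lists were chosen with earlier results of these data known, and the partner ratios, TGATGCAA and TGAGNNNGC were added after values were seen. Signal over background stands in for depth, and 3 arrays per group limit the precision. The alternatives were other scalings (quantile, median, spike-in), normexp, a common floor, other filters, blocks for replicate or slide row, slide row 1 alone, array weights, 1 probe per gene, the authors' table and each array left out.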

Additional observations from a re-analysis of the deposited data

How the results depend on the processing

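Signs of Nfe2l2, Hmox1, Nqo1, Txnrd1, Srxn1 and Slc7a11 held in every alternative that tested them; Nfe2l2 was called in 10 of 19, Srxn1 in 6 and the Hmox1 probes in 16 of 19 and 14 of 18. Main counts were 6900 probes, 5 member genes, 6 member probes and 33 list genes. In the same order they were 1623, 3, 4 and 5 with spike-in scaling, 635, 2, 2 and 3 without a filter, 1892, 3, 3 and 10 with slide row as a block, 754, 1, 1 and 2 in slide row 1 alone, and 1127, 2, 2 and 6 in the authors' deposited table; array weights gave 10821 probes and 51 list genes. Leaving out 1 array gave 2706 to 6026 probes, 3 to 4 genes, 4 to 5 member probes and 14 to 29 list genes; probes were fewest without nontargeting replicate 2. Uncalled values changed sign: with median scaling Keap1 was 0.29, Bach1 0.08 and Gclc 0.26; with spike-in scaling 0.37, 0.16 and 0.34, Gclm 0.06, Crebbp 0.07 and Esd 0.02; Keap1 was 0.02 with normexp and 0.01 in the authors' table. Leaving out 1 array put Keap1 between −0.05 and 0.03 and Gclc between −0.15 and 0.05; both were above 0 without Foxo3 siRNA replicate 1 (0.02 and 0.03) and without nontargeting replicate 2 (0.03 and 0.05). The cause was not tested. With the replicate block 6964 probes and the same number of member genes, 5, were called. The deviations of same-numbered samples had correlations of 0.16, −0.31 and 0.11. Samples with different numbers gave −0.37 to 0.29, a range that holds all of these. Such values do not tell whether the numbers pair the samples.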
